A study of Mus musculus with 8 samples.

Results

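The genes described here encode 3 groups of factors that act on RNA polymerase II after it has left the promoter: the TFIIS family (Tcea1, Tcea2 and Tcea3), the ELL family (Ell, Ell2 and Ell3), and P-TEFb (Cdk9 and Ccnt1) with its AFF scaffolds (Aff1 and Aff4). These 10 genes were taken by symbol from a table of 34976 usable symbols, and the transcript rows of each symbol were summed. Of the 10, 8 had a mean of at least 1 FPKM (fragments per transcript length and library size) over all libraries and were tested, among 11755 such genes. The embryos were from CF-1 mice, which are outbred. They had been injected at the early 1-cell stage and were taken for RNA late in the 2-cell stage. Control embryos received a scrambled morpholino, and the others a morpholino directed at the transcription start site of Med13 and described as a MED13 knockdown. There were 4 independent collections per group, each a pool of 40 embryos, so 8 libraries in all. No uninjected group was analysed here, and the injection itself is common to both groups. The title of the series places the comparison in activation of the zygotic genome by the Mediator subunit MED13.

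TFIIS rescues polymerase that has backtracked along its template: it reaches into the enzyme and stimulates cleavage of the nascent RNA, so that synthesis can resume. ELL proteins raise the rate of elongation by suppressing transient pausing. P-TEFb is the kinase CDK9 bound to a cyclin T, and it releases promoter-proximal polymerase by phosphorylating the polymerase tail and the factors that hold it in place. AFF1 and AFF4 are the scaffolds of super elongation complexes, in which P-TEFb and an ELL protein are brought together. At the 2-cell stage the mouse embryo passes from stored maternal mRNA to transcripts of its own.

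The libraries held 31378977 to 48050262 fragments, by totals worked out from the FPKM on an assumed smallest unit of 0.5 fragments. Correlations across genes of log2(FPKM + 1) were 0.943 to 0.986 within groups and 0.882 to 0.958 between them. Scrambled replicate 2 stood apart, where the top 10 genes held 20.8% of the summed FPKM. In the other controls they held 12.98% to 13.8%, and after the Med13 morpholino 16.4% to 17.5%. Leaving it out ended neither of the 2 calls reported for these genes, those of Tcea1 and Ell2. Med13 mRNA was 41.3 ± 4.31 and 42.2 ± 2.14 FPKM (SD, n = 4 each; two-sided exact permutation p = 0.743), which does not check the labels, since morpholinos may act on translation without removing the mRNA they bind. MED13 protein was not measured here.

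After the Med13 morpholino, 2 of the 8 tested genes fell, Tcea1 and Ell2, and 0 rose. Both were among the most abundant of the 10 in control embryos. Ell, Ell3, Aff1, Aff4, Cdk9 and Ccnt1 did not pass the test, and the level of each overlapped between the groups. The test was limma on log2(FPKM + 1) over all 11755 genes, two-sided, with a Benjamini-Hochberg adjusted p below 0.05. It called 17.1% of all genes, 7.81% as lower and 9.29% as higher. The 4 Med13 morpholino libraries were all below the 4 controls in the same 2 genes, an absence of overlap seen in either direction in 21.6% of all genes and in that direction in 11.1%. With 8 genes, 2 falls are a small count. The median log2 difference was -0.09 over the 8 genes and -0.06 over all genes tested.

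**Figure D1:**
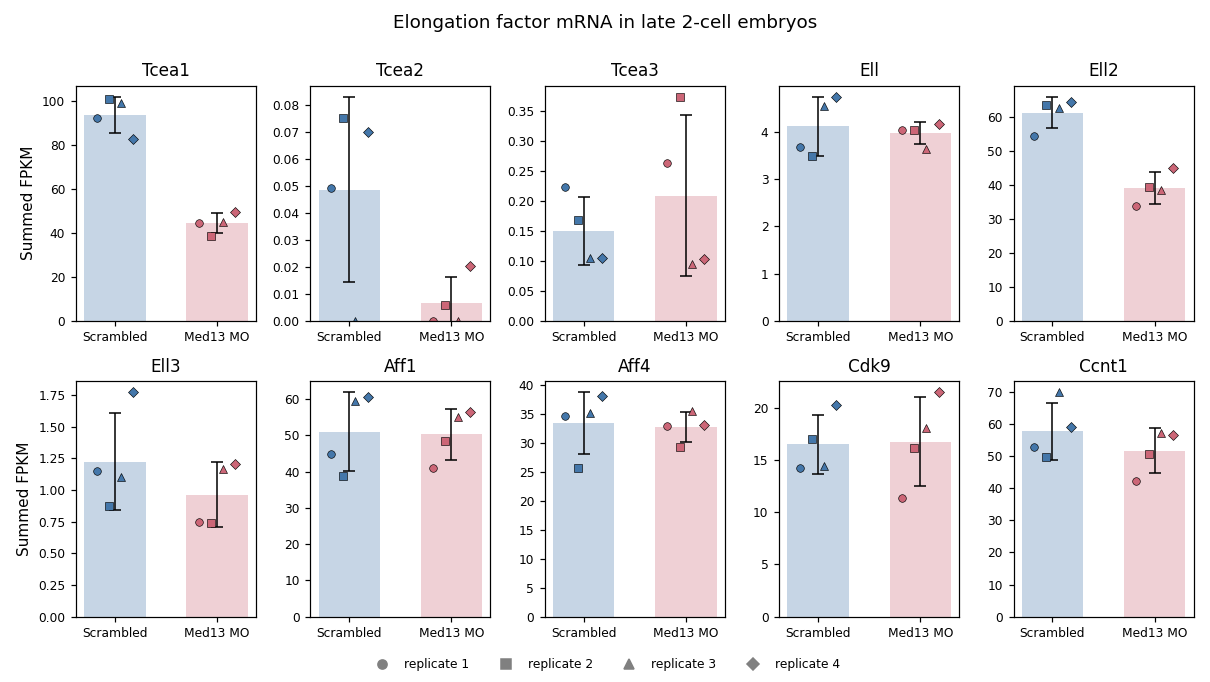
Summed FPKM (vertical axes, each from 0 and on its own scale) of the 10 elongation factor genes in scrambled and Med13 morpholino embryos. Points are single libraries, bars are group means and error bars are SD (n = 4). Tcea1 lies between 82.6 and 100.9 in controls and between 38.5 and 49.7 after the Med13 morpholino, and Ell2 is the other gene whose groups do not overlap.

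Tcea1 is the broadly expressed TFIIS gene (ENSMUSG00000033813, mm10 chromosome 1, 4857814 to 4897909, plus strand). Its summed FPKM was 92.2, 100.9, 99.1 and 82.6 in scrambled replicates 1 to 4 and 44.4, 38.5, 44.9 and 49.7 in Med13 morpholino replicates 1 to 4. The lowest control was well above the highest Med13 morpholino library. The means were 93.7 ± 8.31 and 44.4 ± 4.58 (SD, n = 4 each). On the log2(FPKM + 1) scale Tcea1 fell by 1.06 ± 0.15 (SE), with a 95% interval for the fold of 0.382 to 0.601 (limma adjusted p = 0.00103). Only 86 of the 11755 genes, 0.732%, had a lower log2 difference. In these bulk pools, fewer cells carrying a transcript and less of it per cell cannot be told apart.

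The fall was of like size in both Tcea1 transcript rows. Both are protein-coding models of 10 exons, 2547 and 2854 bases long. All exons of the gene cover 3017 bases, so the 2 rows share most of their bases. They are not independent measures, and a like fall or a steady share in the 2 adds little to the fall of the sum. ENSMUST00000081551 had 53.4 ± 4.20 FPKM in controls and 25.3 ± 2.42 after the Med13 morpholino (SD, n = 4 each; log2 difference -1.05, limma adjusted p = 0.00121 over transcript rows). ENSMUST00000165720 had 40.3 ± 4.13 and 19.1 ± 2.24 FPKM (log2 difference -1.04, adjusted p = 0.00159). The first row held 57.0% ± 0.672 of the Tcea1 sum in controls and 57.0% ± 1.15 after the morpholino (SD, n = 4 each; two-sided exact permutation p = 1 over 70 assignments).

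Tcea1 has a processed pseudogene, Tcea1-ps1 (ENSMUST00000117942, mm10 chr15:90882615-90883518, plus strand), that is 99.3% identical to its coding sequence, with 6 differing bases in 904 aligned. It is shown because so near a copy can share reads with Tcea1. In the stretch of 120 bases with the most differences, coding bases 552 to 671 of Tcea1 and chr15:90883166-90883285 of the pseudogene, 3 bases differ. Each sequence is written 5′ to 3′ from the mm10 reference, and the capitals mark the differing bases.

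Tcea1: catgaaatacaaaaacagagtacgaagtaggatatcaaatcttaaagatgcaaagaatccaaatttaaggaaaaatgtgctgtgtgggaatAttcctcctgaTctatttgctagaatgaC

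Tcea1-ps1: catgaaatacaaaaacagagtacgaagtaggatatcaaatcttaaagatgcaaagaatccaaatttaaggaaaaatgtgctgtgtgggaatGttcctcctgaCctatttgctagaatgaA

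A read from the lower-case run of this stretch has the same letters in the gene and in its copy. Of all 50-base words of the pseudogene, 73.3% also occur in Tcea1, and these make up 25.1% of the words of ENSMUST00000081551. The row of Tcea1-ps1 is one of those whose values stand 1 column to the right in the deposited table. Moved back, it had 10.8, 10.4, 12.9 and 11.99 FPKM in scrambled replicates 1 to 4 and 5.43, 5.32 and 5.94 in Med13 morpholino replicates 1 to 3, with no value for replicate 4. The pseudogene row was thus lower in the same libraries as Tcea1. How the authors placed reads that match both is not stated by any source read here, and its part in the Tcea1 difference was not tested. Another processed pseudogene, Gm12112 (chromosome 11, 32910373 to 32910603, plus strand), shares 182 words of 50 bases with Tcea1, against 627 for Tcea1-ps1. It had 11.9, 10.3, 17.4 and 14.97 FPKM in the controls and 6.13, 6.76, 8.21 and 10.98 after the Med13 morpholino (log2 difference -0.71 ± 0.21 SE, limma adjusted p = 0.0339). It was called lower although its groups overlapped, and its part in the Tcea1 difference was not tested either. The overlapping gene Gm37988 shares 153 words, covers 6.50% of the exonic bases of Tcea1 on the same strand, and had 2.30 ± 0.268 and 1.79 ± 0.288 FPKM (SD, n = 4 each; limma adjusted p = 0.250). Rab34 and Hsf2 share fewer words, 42 and 37. Rab34 was not called (limma adjusted p = 0.388). Hsf2 was called lower, with 4.91 ± 1.07 and 2.60 ± 0.374 FPKM (SD, n = 4 each; limma adjusted p = 0.0132). The part of these genes in the Tcea1 difference was not tested.

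The other TFIIS genes were near the lower limit of these libraries. Tcea2, best known from testis, had 0.0491, 0.0751, 0 and 0.0698 FPKM in the controls and 0, 0.00577, 0 and 0.0202 after the Med13 morpholino, over 3 rows of which 1 is protein-coding. On the assumed unit of 0.5 fragments, no Tcea2 row held more than 7 fragments in any library. The level of the principal coding model of Tcea2 was not analysed here, so these values speak only for the 3 rows. Tcea3 had 0.223, 0.167, 0.105 and 0.105 FPKM in the controls and 0.262, 0.373, 0.0942 and 0.103 after the Med13 morpholino. Its main row held 3 to 12.5 fragments on the same unit. Both genes were below the limit of 1 FPKM. Tested with no filter on low values, neither was called (limma adjusted p = 0.279 for Tcea2 and 0.692 for Tcea3). With so few fragments, the lack of a call does not show that their levels were unchanged.

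Over the rows in the table, and so without the principal coding model of Tcea2, the summed FPKM of the TFIIS family was almost all Tcea1, 99.7% to 99.9% of it in controls and 99.0% to 99.8% after the Med13 morpholino. The family sum was 93.9 FPKM in controls and 44.6 after the Med13 morpholino. The coding sequences of the paralogs are far enough apart to be counted separately, with 0 shared words of 50 bases. Tcea1 and Tcea2 were 68.9% identical, Tcea1 and Tcea3 67.0%, and Tcea2 and Tcea3 68.4%. The Tcea2 sequence compared was that of its principal coding model, which is not one of its 3 rows. Those 3 rows also held 0 words of 50 bases found in other genes.

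Ell2 was the main ELL gene of these embryos (ENSMUSG00000001542, chromosome 13, 75706757 to 75772364, plus strand). It had 54.4, 63.6, 62.7 and 64.5 FPKM in scrambled replicates 1 to 4 and 33.7, 39.5, 38.5 and 45.0 in Med13 morpholino replicates 1 to 4. The groups did not overlap, and the nearest pair, scrambled replicate 1 and Med13 morpholino replicate 4, still stood apart. Mean levels were 61.3 ± 4.67 and 39.2 ± 4.66 (SD, n = 4 each). Ell2 fell by 0.64 ± 0.15 (SE) on the log2 scale, a fold of 0.643 with a 95% interval of 0.512 to 0.808 (limma adjusted p = 0.0149). Of all genes tested, 678 (5.77%) had a lower log2 difference. Leaving out Med13 morpholino replicate 2 ended the call (limma adjusted p = 0.0508). Whether the falls of Tcea1 and Ell2 differ in size was not tested.

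Ell2 has 1 row in the table, the coding model ENSMUST00000001583. Tested among transcript rows instead of genes, the same values had an adjusted p of 0.0213 (limma), and that call was lost in 5 of 12 alternatives. These were no filter on low values (limma adjusted p = 0.0595) and leaving out scrambled replicate 3 (0.0663) or 4 (0.0553), or Med13 morpholino replicate 2 (0.0677) or 3 (0.0604). The log2 difference itself ran from -0.70 to -0.57 over those 12.

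Ell (ENSMUSG00000070002, chromosome 8, 70539457 to 70592858, plus strand), for which the family is named, was far less abundant than Ell2. It had 3.69, 3.498, 4.56 and 4.75 FPKM in the controls and 4.05, 4.04, 3.65 and 4.18 after the Med13 morpholino. All 4 Med13 morpholino libraries lay within the range of the controls. The log2 difference was -0.03, with a 95% interval of -0.35 to 0.28 (limma adjusted p = 0.890). With Ell2 lower and Ell not called, the share of Ell in the ELL family sum was 5.14% to 6.68% in controls and 8.29% to 10.5% after the Med13 morpholino. The share of Ell2 was 90.8% to 93.6% and 87.5% to 89.3%. The family sum was 66.7 FPKM in controls and 44.1 after the morpholino.

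Ell3, known for occupying enhancers in embryonic stem cells, was just above the limit for testing (chromosome 2, 121439010 to 121444278, minus strand). It had 1.15, 0.873, 1.10 and 1.77 FPKM in the controls and 0.748, 0.736, 1.17 and 1.21 after the Med13 morpholino. The groups overlapped (log2 difference -0.17, 95% interval -0.52 to 0.17, limma adjusted p = 0.477). The control mean, 1.22, was above 1 and the other, 0.964, was not, so the controls carried it past the limit. Serinc4 covers 65.6% of its exonic bases on the same strand, and 61.4% of its 50-base words occur in Serinc4. That gene had 1.78 ± 0.599 and 1.02 ± 0.211 FPKM (SD, n = 4 each; limma adjusted p = 0.113), and the 2 genes cannot be told apart over the shared bases.

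Cdk9, the kinase of P-TEFb (chromosome 2, 32705784 to 32713076, minus strand), had 14.2, 17.0, 14.5 and 20.3 FPKM in the controls. After the Med13 morpholino it had 11.4, 16.2, 18.1 and 21.5 FPKM. The Med13 morpholino libraries spanned a wider range than the controls and held both the lowest and the highest value. The log2 difference was 0.00 ± 0.20 (SE), with a 95% interval of -0.43 to 0.43 (limma adjusted p = 0.993), so a change of up to about that size in either direction is not excluded by these libraries. Of 9 Cdk9 rows, 5 were abundant enough to test, and their log2 differences ran from -0.32 to 0.12 with none called.

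Ccnt1, which encodes the cyclin T1 partner of CDK9 (chromosome 15, 98538689 to 98570923, minus strand), had 53.0, 49.7, 69.97 and 59.0 FPKM in the controls. After the Med13 morpholino it had 42.4, 50.9, 57.3 and 56.8 FPKM. The lowest value was in Med13 morpholino replicate 1 and the highest in scrambled replicate 3, and the rest were intermixed. The log2 difference was -0.16 ± 0.17 (SE; 95% interval -0.52 to 0.21, limma adjusted p = 0.555).

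Among the 9 Ccnt1 rows, all of them tested, a retained-intron model was called lower. ENSMUST00000130921 had 4.45, 4.54, 5.32 and 5.49 FPKM in the controls and 3.52, 3.32, 3.46 and 3.25 after the Med13 morpholino. Its groups did not overlap (log2 difference -0.44 ± 0.14 SE, limma adjusted p = 0.0456 over rows). The call was lost in 9 of 12 alternatives (limma adjusted p of up to 0.132), among them leaving out any one library other than scrambled replicate 2, while the log2 difference stayed between -0.53 and -0.25. Of this row, 4.57% lies over the antisense gene 9330020H09Rik, and without a stated strand setting reads of the 2 cannot be told apart there. The full-length coding model, ENSMUST00000169707, had 13.9 ± 1.81 and 12.1 ± 1.63 FPKM (SD, n = 4 each; log2 difference -0.18, adjusted p = 0.482).

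Aff1, a scaffold of the super elongation complex (chromosome 5, 103692374 to 103855322, plus strand), had 45.0, 38.9, 59.6 and 60.7 FPKM in the controls and 41.1, 48.6, 55.1 and 56.6 after the Med13 morpholino. Each group held 2 libraries below 50 FPKM and 2 above 55, and the groups overlapped. The log2 difference was -0.01 ± 0.19 (SE; 95% interval -0.41 to 0.40, limma adjusted p = 0.985). Its 5 rows were all tested and differed by -0.07 to 0.02.

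Aff4, the scaffold that most super elongation complexes are built on (chromosome 11, 53350833 to 53421830, plus strand), had 34.7, 25.8, 35.2 and 38.1 FPKM in the controls. After the Med13 morpholino it had 32.9, 29.3, 35.6 and 33.1 FPKM, all within the control range. The log2 difference was -0.02 ± 0.16 (SE; 95% interval -0.37 to 0.33, limma adjusted p = 0.948). A short coding model of 464 bases, ENSMUST00000153821, stood apart from the other 7 rows. It had 2.46, 2.16, 1.70 and 1.73 FPKM in the controls and 3.39, 3.02, 2.95 and 2.61 after the Med13 morpholino, without overlap, but it did not pass the test (log2 difference 0.41 ± 0.14 SE, limma adjusted p = 0.0628). The full-length model, ENSMUST00000060945, had 11.5 ± 1.58 and 9.84 ± 1.16 FPKM (SD, n = 4 each; log2 difference -0.20, adjusted p = 0.420).

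Over the 10 genes there were 44 transcript rows, 31 of them with a mean of at least 1 FPKM. Of these 31, 4 were called lower (2 of Tcea1, 1 of Ell2, 1 of Ccnt1) and 0 higher. The 2 Tcea1 rows share most of their bases, so their calls are not independent. Among all 21052 rows tested, 15.7% were called, 7.57% as lower and 8.17% as higher. The groups did not overlap in 5 of the 31, the 4 called rows and the short Aff4 row, while 20.9% of all rows had no overlap in either direction and 11.2% were lower without overlap. The share of the most abundant row in its gene's sum was compared in the 5 genes with at least 2 tested rows, and the raw two-sided exact permutation p ran from 0.371 for Aff4 to 1 for Tcea1. The smallest p that 4 against 4 libraries can give is 0.0286.

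**Figure D2:**
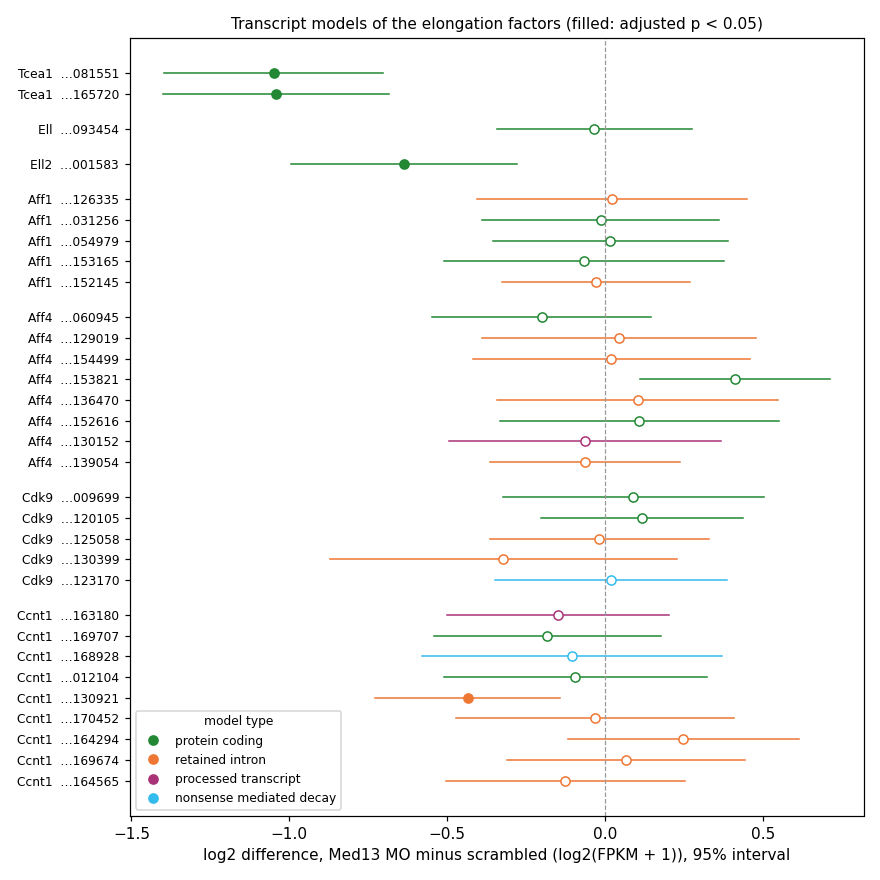
Log2 difference, Med13 morpholino minus scrambled, of the 31 tested transcript rows (horizontal axis, log2(FPKM + 1); lines are 95% intervals, names are gene symbols with the last 6 digits of the transcript, and colours are model types). Filled points passed the limma test: both Tcea1 rows near -1.0, the Ell2 row at -0.64 and a Ccnt1 retained-intron row at -0.44, while the rows of Aff1, Aff4, Cdk9 and Ell are open.

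In control embryos the order of the summed FPKM was Tcea1 (93.7), Ell2 (61.3), Ccnt1 (57.9), Aff1 (51.0), Aff4 (33.4), Cdk9 (16.5), Ell (4.12) and Ell3 (1.22), with Tcea3 and Tcea2 below 1. Ell2, Ccnt1 and Aff1 differed by less than the SD of Aff1 (10.8), so their order is not resolved. Sums over rows with shared exons may count a fragment more than once, and Ell and Ell2 have 1 row where Cdk9 and Ccnt1 have 9. By the highest protein-coding row alone, Ell2 (61.3 ± 4.67) was above Tcea1 (53.4 ± 4.20). Ccnt1 (13.9 ± 1.81), Aff1 (11.6 ± 2.01) and Aff4 (11.5 ± 1.58) followed, and then Cdk9 (4.54 ± 0.502; SD, n = 4 for each). After the Med13 morpholino the summed level of Tcea1 was 44.4 ± 4.58, beside 51.8 ± 6.97 for Ccnt1 and 50.3 ± 7.08 for Aff1 (SD, n = 4 each).

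The genes nearest to Tcea1 and Ell2 in pattern were found among 4620 tested genes, those with a mean of at least 5 FPKM and a symbol that is no clone or predicted name, by the root mean square difference between log2 profiles centred over the 8 libraries. For Tcea1 they were Bex1 (0.0986), the endoplasmic reticulum shaping gene Rtn4 (0.113) and the mitochondrial carrier Slc25a36 (0.118), against a median over genes of 0.554. Bex1 had 11.9 ± 1.14 FPKM in controls and 5.44 ± 0.537 after the Med13 morpholino, and Rtn4 had 74.5 ± 4.98 and 39.0 ± 3.92. Slc25a36 had 28.9 ± 2.53 and 14.5 ± 2.00 FPKM (SD, n = 4 for each gene). For Ell2 they were Zmynd8 (0.0678), a reader of histone marks, Tsc22d2 (0.0726) and the cystathionine lyase Cth (0.0777), against a median of 0.372. Zmynd8 had 48.9 ± 2.68 and 32.7 ± 2.01 FPKM, Tsc22d2 46.8 ± 3.77 and 32.0 ± 4.61, and Cth 39.6 ± 3.91 and 23.2 ± 3.34. These genes were selected for their likeness over the same 8 libraries, which is a description only.

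**Figure D3:**
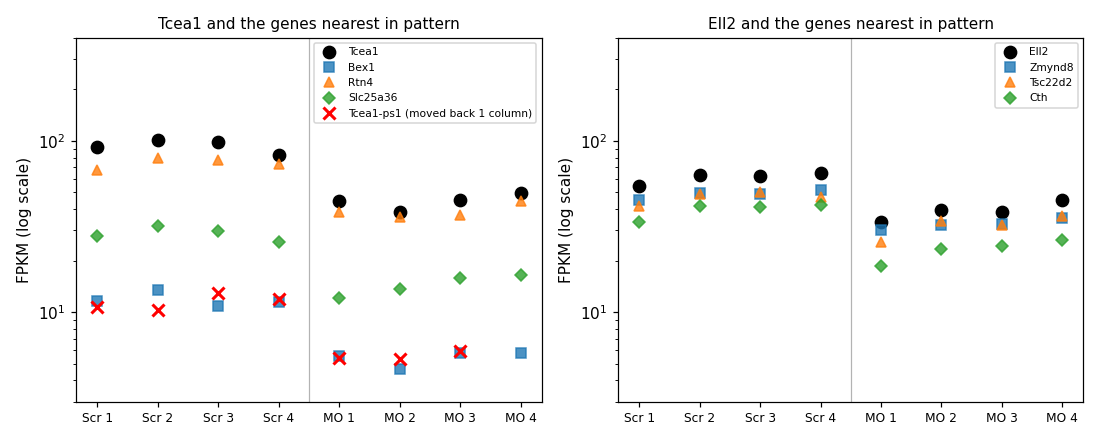
FPKM (log axis) in each library of Tcea1 with Bex1, Rtn4, Slc25a36 and the pseudogene Tcea1-ps1 (left), and of Ell2 with Zmynd8, Tsc22d2 and Cth (right). Every gene shown is higher in each of the 4 scrambled (Scr) libraries than in any Med13 morpholino (MO) library, and the pseudogene has no value in MO 4.

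The rest of the elongation machinery was read from 5 lists of 65 symbols, some of them old and new names of 1 gene. Of these, 54 were in the table and 52 were tested. Of the 52, 2 rose and 2 fell (3.85% in each direction), against 9.29% and 7.81% of all genes, and the median log2 difference was -0.09. None of 12 genes for cofactors of P-TEFb and related kinases passed. Their median was -0.01, with single genes from -0.63 to 0.27. Larp7 came nearest to a call, with 24.9 ± 4.10 and 17.0 ± 2.20 FPKM (SD, n = 4 each; limma adjusted p = 0.0527). It was lower in every Med13 morpholino library than in any control. Rn7sk, the noncoding RNA that holds P-TEFb inactive, varied widely in both groups, with 45.6 ± 19.5 and 28.4 ± 10.1 FPKM (SD, n = 4 each; limma adjusted p = 0.202).

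Among 8 partners of the super and little elongation complexes, 1 fell and 1 rose. Mllt1, which encodes the chromatin reader ENL, had 1.86, 2.68, 3.92 and 4.30 FPKM in the controls and 1.39, 1.70, 1.18 and 1.23 after the Med13 morpholino (log2 difference -0.78 ± 0.19 SE, limma adjusted p = 0.0178). Every Med13 morpholino library was below every control. Aff3, an AFF paralog of Aff1 and Aff4, had 1.26, 0.892, 1.06 and 1.49 FPKM in the controls and 2.50, 2.38, 2.24 and 1.62 after the Med13 morpholino, also without overlap (log2 difference 0.55 ± 0.15 SE, limma adjusted p = 0.0269). Both were of low abundance. The Mllt1 call was lost in 3 of 16 alternatives: with no filter on low values (limma adjusted p = 0.0706) and on leaving out replicate 3 of the controls (0.0532) or of the Med13 morpholino group (0.0535). The Aff3 call was lost in 5 of 14: with low values kept (0.0721), and on leaving out replicate 3 of the controls (0.0721) or replicate 1 (0.0744), 2 (0.0841) or 3 (0.0674) of the Med13 morpholino group.

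The 6 tested genes of DSIF and NELF, which impose the pause that P-TEFb relieves, had 0 calls and a median of -0.11. Supt4a had 109.7 ± 15.9 and 107.8 ± 26.3 FPKM, and Nelfa 24.8 ± 3.23 and 21.6 ± 1.79 (SD, n = 4 each; limma adjusted p = 0.892 and 0.428). Of 10 genes for the PAF1 complex, SPT6 and FACT, which travel with polymerase through chromatin, 1 fell. Cdc73, a PAF1 complex subunit, had 6.45, 7.83, 6.05 and 5.90 FPKM in the controls and 4.00, 3.49, 3.54 and 4.46 after the Med13 morpholino (log2 difference -0.63 ± 0.15 SE, limma adjusted p = 0.0143). The median of this list was -0.25, and Paf1 itself had 29.5 ± 5.39 and 27.8 ± 8.66 FPKM (adjusted p = 0.750). The call of Cdc73 was lost without Med13 morpholino replicate 2 (adjusted p = 0.0562).

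Of 16 genes for Elongin, TFIIF and other regulators, 1 rose and 0 fell, with a median of -0.07. Gtf2f2, the small subunit of TFIIF, had 19.8, 19.5, 17.1 and 17.8 FPKM in the controls and 31.7, 41.7, 46.9 and 41.9 after the Med13 morpholino. The lowest Med13 morpholino library was above the highest control (log2 difference 1.07 ± 0.16 SE, a fold of 2.11, limma adjusted p = 0.00132), and the call was kept in all 17 alternatives. Tceb1, which encodes Elongin C, had 307.3 ± 42.4 and 293.8 ± 58.9 FPKM (SD, n = 4 each; adjusted p = 0.803).

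**Figure D4:**
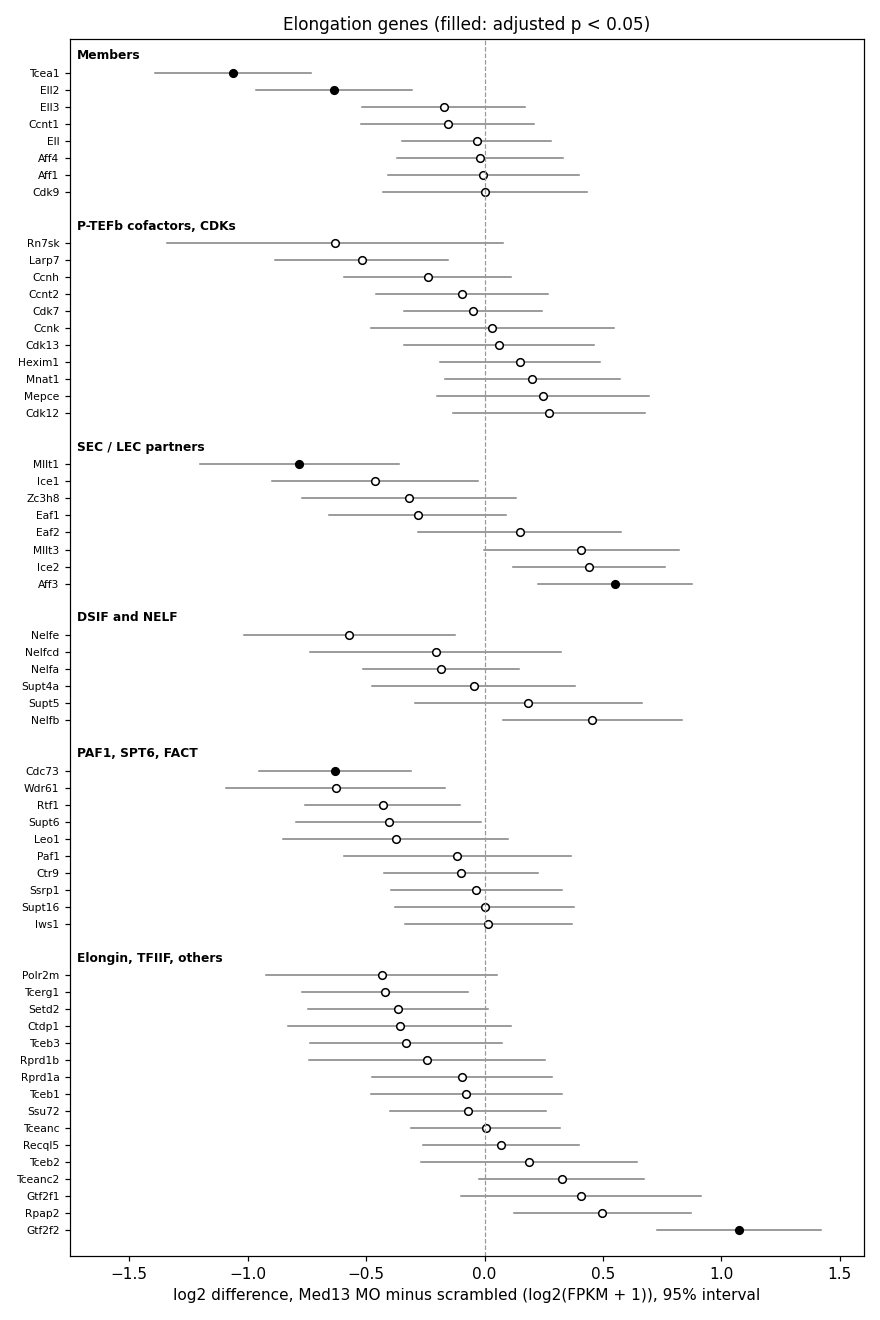
Log2 difference, Med13 morpholino minus scrambled, of the 8 tested elongation factor genes and of genes in 5 lists of other elongation genes (horizontal axis, log2(FPKM + 1); lines are 95% intervals; filled points have a limma adjusted p below 0.05). Tcea1 at -1.06 and Gtf2f2 at 1.07 lie farthest out, and most open points lie within 0.5 of 0.

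Tcea1 was called in all 17 alternatives to the settings used, with a log2 difference of -1.12 to -0.98. Ell2 was called in 16 of 17, with -0.70 to -0.56. The other 6 tested genes were called in none of theirs, and the sign of Ell, Aff1, Aff4 and Cdk9 differed between settings.

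**Figure D5:**
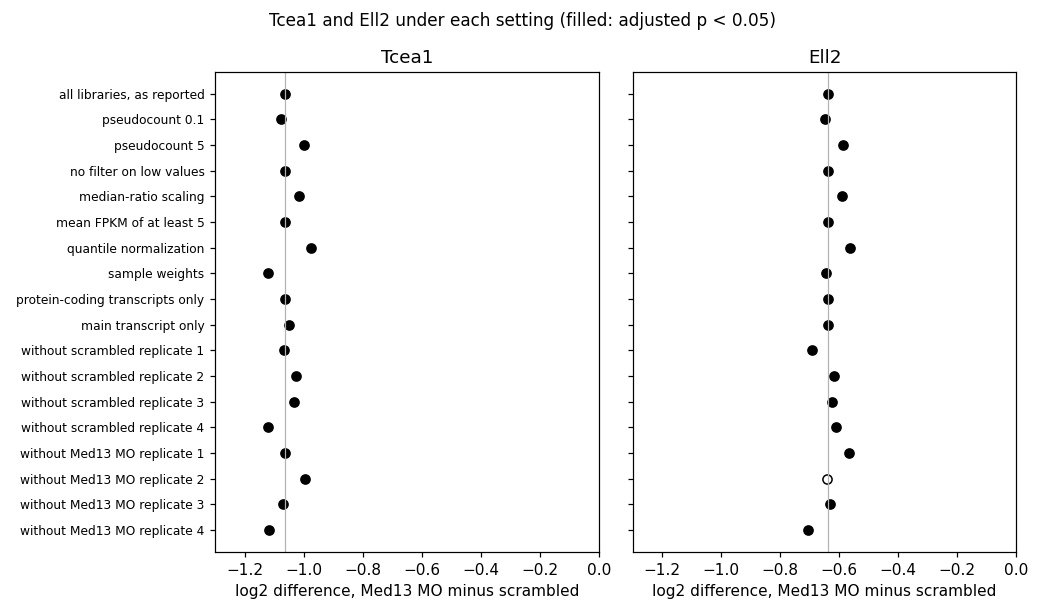
Log2 difference of Tcea1 (left) and Ell2 (right) under each setting (rows), with the value as reported as a vertical line. Points are filled where the limma adjusted p is below 0.05: Tcea1 lies between -1.12 and -0.98 and is filled throughout, and Ell2 is open only without Med13 morpholino replicate 2.

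All 12 listed 2-cell markers were at a mean of 1 FPKM or more, as were 11 of 12 oocyte markers, and 0 of 10 cumulus cell markers and 0 of 6 sperm markers in the table. The summed 2-cell markers were 204 to 296 FPKM in the controls and 312 to 510 after the Med13 morpholino, with 7 called higher and 2 lower. The oocyte markers were 577 to 709 and 851 to 1068 FPKM, with 7 called higher. These sums moved opposite to Tcea1 and Ell2, and their part in the differences was not tested. Cumulus markers summed to 0.969 to 2.68 and 1.14 to 1.76 FPKM, and sperm markers to 0.123 to 0.925 and 0.203 to 0.497. Of 7 blood and immune markers in the table, 2 reached 1 FPKM, with sums of 2.77 to 6.03 and 2.90 to 3.44. Of 6 oviduct markers, Epcam and Ovgp1 did so, with sums of 25.8 to 35.9 and 29.5 to 37.0 and 1 called lower. Most of the oviduct sum was Epcam, with a mean of 26.5 FPKM over all libraries, beside 2.83 for Ovgp1.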

How the data were processed

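Each library came from total RNA of 40 pooled embryos. The RNA was amplified (Ovation RNA-Seq System V2), and 400 ng of cDNA went into a TruSeq library, per the labels' protocols. The 4 replicates of a group are separate collections, and a p-value reflects the spread among them. The authors deposited FPKM per Ensembl transcript. BWA and mm10 are named in the submitters' processing notes. The counting tool, annotation release, strand setting and handling of reads shared by isoforms are not stated by any source read here. In 3758 of 97496 rows, all those with a hyphen in the symbol and no others, the deposited FPKM stand 1 column to the right, so 1 column holds other values there (text). These were left out of the tests, which leaves 93738 rows. GENCODE M21 held 98.7% of the transcripts. The number in each title tied a column to its sample.

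FPKM were summed per symbol. Genes, or single rows, were tested where the mean FPKM was 1 or higher. The test was limma 3.58.1 (R 4.3.3) on log2(FPKM + 1) computed from the deposited FPKM, two-sided, with a mean-variance trend and Benjamini-Hochberg adjustment over all genes or all rows tested. This scale understates the change of low genes. Shares and the Med13 level were compared by exact permutation. Multiplied by transcript length, low values were multiples of a fixed step of each library in 94.3% to 94.5% of cases. The step was assumed to be 0.5 fragments. On that unit, low values were those up to 20 fragments and the tolerance was 0.005. The library totals and all fragment counts rest on this assumption. The reads carry no molecular identifiers. The code was tested on simulated data.

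The genes, the lists and the tests were chosen with earlier results of these data known. Named were the 10 genes, their tested rows where the text needs them, the called genes of each list (filled to 2 with the most abundant, 1 of which is not reported here), Med13, and the 3 nearest genes in pattern to each called gene. Tcea1-ps1, Gm12112, Gm37988, Rab34, Hsf2, Serinc4 and 9330020H09Rik were named after their values were seen, for shared sequence. Larp7 was also named after its values were seen, as the cofactor gene nearest to a call. Alternatives were other pseudocounts (0.1 and 5), filters, scalings, weights and rows, and each library left out in turn. Coordinates are mm10, from GENCODE M21.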

Additional observations from a re-analysis of the deposited data

How the results depend on the processing

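Signs were compared only for the tested elongation factor genes, their tested rows and the named genes of the lists. No called value among these changed sign. The number of genes called, 2010, was 1012 with no filter on low values, 1137 at a mean FPKM of at least 5, 4336 with sample weights, and 956 to 2404 with 1 library left out (1113 without scrambled replicate 3, and 1291, 956 and 1245 without Med13 morpholino replicates 1, 2 and 3). Of the calls, 54.3% were higher, against 39.5% with sample weights and 43.7% without scrambled replicate 2. Calls over transcript rows, 3315, became 1893 with no filter and 1701 to 4062 with 1 library left out (1992 without scrambled replicate 3, and 2195, 1701 and 2098 without Med13 morpholino replicates 1, 2 and 3). The number of the 10 genes called, 2, was 1 without Med13 morpholino replicate 2 and otherwise 2. Calls in the elongation lists, 4, became 2 with no filter, 7 with median-ratio scaling, 7 with quantile normalization, 18 with sample weights and 2 to 9 with 1 library left out (9 without scrambled replicate 2, 7 without Med13 morpholino replicate 4, and 2 without scrambled replicate 3 or Med13 morpholino replicate 2 or 3). The cause of these shifts was not tested. Some settings also changed the number of libraries or of genes tested, while sample weights used the same 8 libraries and 11755 genes. Tcea2 and Tcea3 were below the limit of 1 FPKM, so they were tested only with no filter, and they were not called there. No paired analysis was run, because the labels give no replicate number that the 2 groups share. The numbers in the titles alternate between the groups, but no label says that neighbouring numbers form pairs. Whether the collections were paired is therefore not known.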

Other observations

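Across the 8 tested elongation factor genes, scrambled replicate 4 had the highest value of its group in 6 (Ell, Ell2, Ell3, Aff1, Aff4 and Cdk9) and the lowest in Tcea1. Scrambled replicate 2 had the lowest value in 5 (Ell, Ell3, Aff1, Aff4 and Ccnt1) and the highest in Tcea1. In both of these control libraries Tcea1 stood at the other end of its group from most of the other genes, a pattern seen after the values were known and not tested. Among the Med13 morpholino libraries, replicate 4 was highest in 6 genes, Tcea1 included, and replicate 1 lowest in 4.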
